A study of Mus musculus with 4 samples.

Results

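The genes described here are a set of 39 linked to contractile and matrix-producing stromal cells. The set holds smooth muscle and actin cytoskeleton genes, the transcription factor SRF and the co-activators YAP and TAZ. Some targets of YAP and TAZ and genes of fibroblast identity complete it. The 39 genes were taken by name from the deposited expression table. All 39 were found among its 22369 genes, and all 39 passed the filter on low values that left 19547 genes for testing. The table holds 4 mouse RNA-seq libraries of OG2MEF cultures, which are embryonic fibroblasts with a green fluorescent reporter driven by Oct4 sequences. On day 9 of reprogramming, 2 libraries were labelled SOX17-V118M (V118M here), a missense form of an endodermal SOX factor, and 2 were labelled SOX17 WT (wild type here). The description given for both groups names retroviruses for Sox2 and Klf4 and then for 1 of OCT4, a form of SOX17 or GFP. The cells were then kept in medium for embryonic stem cells to which LIF and vitamin C were added. Beyond naming SOX17 or SOX17-V118M, the labels do not tie a virus mix to each library. Nor do they say that the replicates were separate cultures, so the p-values reflect the variation among these 4 libraries, part of which may be technical.

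A fibroblast that spreads on stiff plastic builds actin stress fibres. Polymerizing actin releases the MRTF co-activators, which enter the nucleus and act with SRF at CArG boxes in genes for smooth muscle actin, calponin, transgelin and vinculin. The same tension keeps YAP and TAZ in the nucleus, where they act with TEAD factors on Ctgf, Cyr61, Ankrd1, Amotl2 and Ajuba. During reprogramming fibroblasts give up this contractile and mesenchymal state as they take on an epithelial form. In bulk RNA of mixed cultures, the values of these genes do not by themselves measure how much of the starting cell program is left.

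The promoters show which of the members with a promoter window carry the DNA elements of either pathway close to their start. RefSeq promoter windows on GRCm38.p6 were matched for 28 of the 39 members (32 windows). Actg2, Tagln, Myh11, Ctgf, Thy1, Pdgfrb, Lum, Dcn, Cdh2, Cdh11 and Fn1 had no window and were not searched. The 250 bases before the start were searched on both strands for 2 elements. These were the CArG box of SRF (CCWWWWWWGG, where W is A or T) and GGAATG, the core bound by TEAD factors. Looser forms and sites farther away were not searched. A CArG box lay in 4 of the 28 members (Srf, Cnn2, Myl9 and Vcl), against 1.47% of all 32851 windows of the table. GGAATG or its reverse complement lay in 13 of the 28, against 12.6% of all windows. A member was counted if any of its windows held the element, while the shares of the table are per window. The set was also listed to include SRF and YAP targets. Vcl held both elements, which did not overlap. The stretches shown are 4 members with a CArG box and 2 YAP targets with the TEAD core. Capitals mark the element, and each runs 5′ to 3′ on the strand of the gene.

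Srf, chr17:46556190-46556269, minus strand:
Srf: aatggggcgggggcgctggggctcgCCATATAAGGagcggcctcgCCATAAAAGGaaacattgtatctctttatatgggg
Cnn2, chr10:79988519-79988578, plus strand:
Cnn2: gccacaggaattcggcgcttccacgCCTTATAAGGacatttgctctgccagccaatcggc
Myl9, chr2:156775278-156775337, plus strand:
Myl9: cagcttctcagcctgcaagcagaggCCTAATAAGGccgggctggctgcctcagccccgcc
Vcl, chr14:20929148-20929205, plus strand:
Vcl: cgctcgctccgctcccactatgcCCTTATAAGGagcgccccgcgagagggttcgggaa
Cyr61 (Ccn1 in RefSeq), chr3:145650058-145650113, minus strand:
Cyr61: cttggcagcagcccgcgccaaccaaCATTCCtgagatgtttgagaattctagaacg
Ajuba, chr14:54577795-54577872, minus strand:
Ajuba: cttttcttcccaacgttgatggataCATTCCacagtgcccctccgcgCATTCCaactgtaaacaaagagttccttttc

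The values are whole-number scores with nearly the same distribution in each library, called normalized values here. Column totals ranged from 12855482 to 12859613, so the sequencing depth is unknown. Values near the top of the scale come in shared steps, which is why several abundant members have identical values in different libraries. Sox17, the gene under test, had values of 3016 and 2396 in the V118M libraries and 3484 and 2880 in the wild-type libraries, and the table cannot show the mutation itself. V118M replicate 2 stood apart: over 12651 genes whose log2 values averaged 5 or more, its Pearson r with each other library was 0.954 to 0.964, against 0.986 to 0.990 among those 3. In bulk RNA, fewer cells of a type and less RNA per cell cannot be told apart.

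Fibroblast markers such as Thy1, Vim, Postn and Dcn were present in all 4 libraries, and markers of other cell types were present as well. Summed over each list, the 15 epithelial markers were at 84144 and 37273 in the V118M libraries and 84426 and 85878 in the wild-type libraries. Dsp, the desmoplakin gene, was the largest single part of that sum, at 61186 and 12776 in V118M and 61186 in both wild-type libraries. The value 61186 is the highest of the scale and is shared by 10 genes, so equal values there do not show equal levels. The 10 keratinocyte markers, led by Krt6a, summed to 23391 and 25791 in V118M, against 16614 and 15373 in wild type. The 17 leukocyte markers, led by Itgam, summed to 673 and 705 in V118M and 1038 and 888 in wild type. The 12 endothelial markers summed to 1646 and 1579 in V118M and 1746 and 1820 in wild type, of which Tek was the main part and Emcn was listed at 0 throughout. Of the 14 striated muscle markers, Myod1, Myog, Myf5 and Ckm were not found by name in the deposited table, so their levels are unknown. The 10 markers found summed to 238 and 309 in V118M and 221 and 218 in wild type, led by Tnni1 and with Myh1 listed at 0 throughout. The 14 pluripotency markers summed to 457 and 437 in V118M and 342 and 370 in wild type, led by Tdgf1 and with Dppa4 at 0 throughout. In all 6 lists the sums of both V118M libraries lay on 1 side of both wild-type sums, but these sums rest on a few abundant genes. Without Dsp the epithelial sums of the groups overlapped. Gene by gene, 9 of 10 tested keratinocyte markers were higher in V118M and 12 of 15 epithelial and 12 of 15 leukocyte markers were lower. The endothelial list had 4 higher and 6 lower and the pluripotency list 6 higher and 5 lower. The striated muscle list had 6 higher and 2 lower. Its groups did not overlap in 2 genes, or 25%, both lower in V118M, beside 28.0% of all genes tested. For the other lists that share was 80% (keratinocyte), 72.7% (endothelial), 33.3% (epithelial), 27.3% (pluripotency) and 6.67% (leukocyte). Some endothelial genes without overlap were near the low end of the scale. Tie1 was at 5 in both V118M libraries and at 6 and 10 in wild type, and Cdh5 at 9 and 6 in V118M and 26 and 16 in wild type. The part of these other cell types in the values below was not tested.

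Over the whole set, none of the 39 genes passed the test of V118M against wild type (limma with Benjamini-Hochberg adjustment over 19547 genes, lowest adjusted p among members 0.951). Among all genes tested 0% passed. Log2 fold changes, taken as V118M minus wild type after adding 1 to each value, ran from -0.56 for Vcl to 0.73 for Cnn1, with 24 members above 0, 14 below and Vim at 0. Their median was 0.03, and that of all genes tested was 0. At an unadjusted p under 0.05 there were 5 members, or 12.8%, beside 4.01% of all genes. Of these, 2 were higher in V118M (Postn and Pdgfra), where 2.31% of all genes were. The other 3 were lower (Amotl2, Ajuba and Cav1), where 1.70% of all genes were. The groups did not overlap in 13 members, or 33.3%, a share close to the 28.0% of all genes tested. Both V118M libraries lay above both wild-type libraries in 9 of the 39 members, where 13.2% of all genes tested did. They lay below in 4 of the 39, where 14.8% of all genes tested did.

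**Figure D1:**
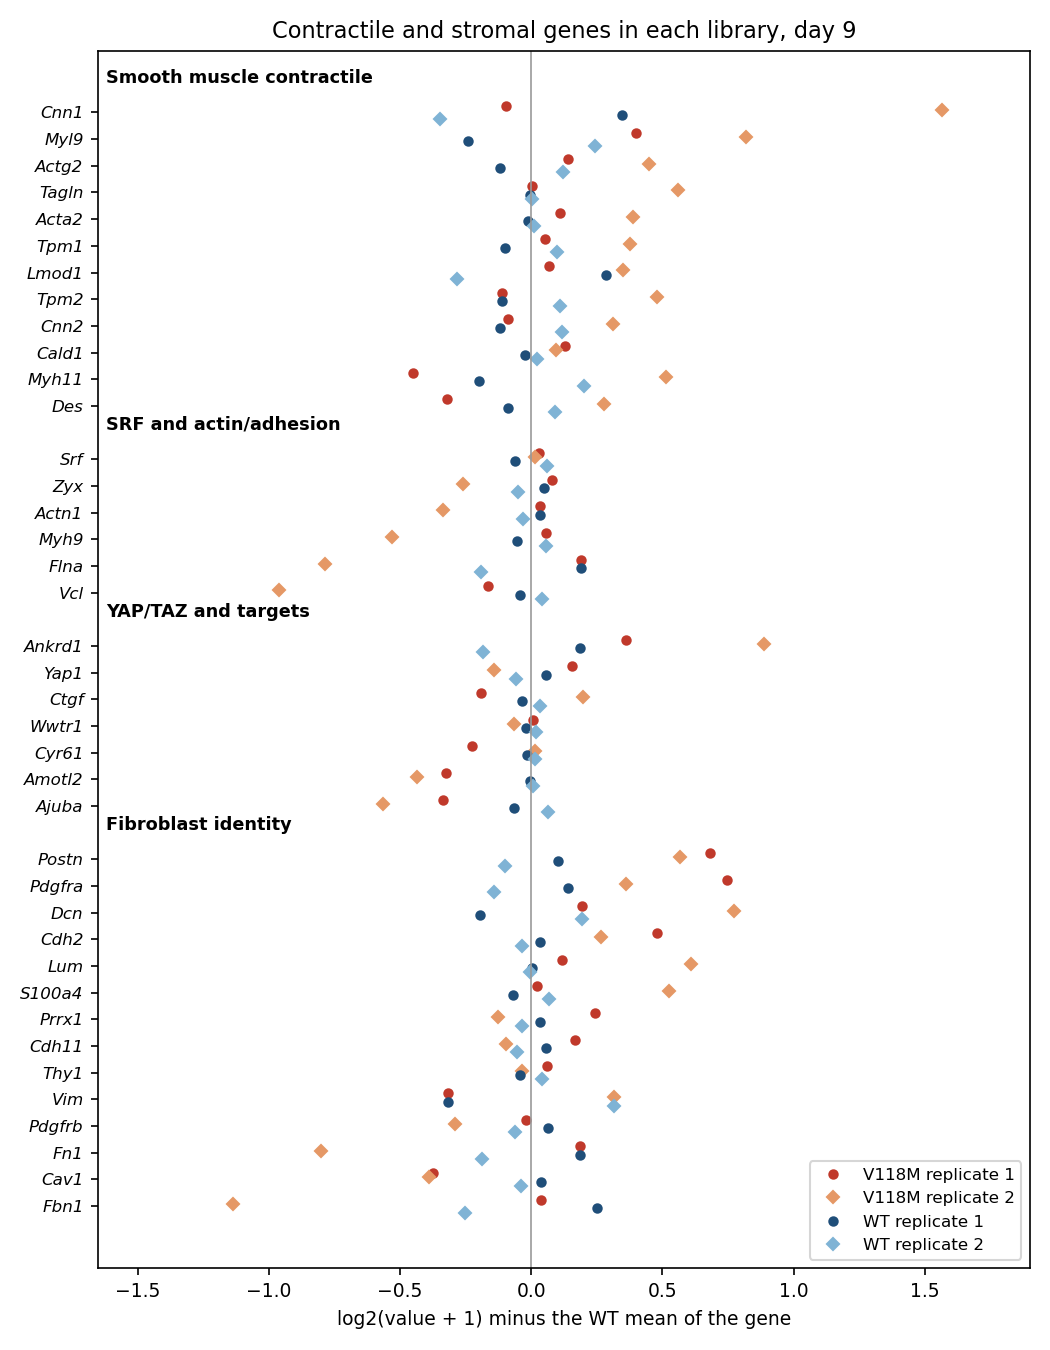
Value of each of the 39 members in each library, as log2(value + 1) minus the mean of the 2 wild-type libraries (x axis); members are ordered within each group by their log2 fold change, and each point is a library. V118M replicate 2 lies to the right of the wild-type mean for all 12 smooth muscle contractile genes and to its left for 5 of the 6 genes of the SRF and adhesion group, while V118M replicate 1 mostly lies close to the wild-type libraries.

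Smooth muscle contractile genes were higher in V118M for 11 of the 12, and their log2 fold changes had a median of 0.21, but the distance was mostly that of V118M replicate 2. Relative to the wild-type mean, their median was 0.03 in V118M replicate 1 and 0.42 in V118M replicate 2. V118M replicate 2 was above the mean of wild type for all 12, and V118M replicate 1 for 7. None of the 12 passed the test, adjusted or not.

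Acta2 encodes smooth muscle alpha-actin, the defining marker of myofibroblasts (GRCm38 chromosome 19, 34241090 to 34255590, minus strand, as for all positions below on this build). It had values of 2364 and 2863 in the V118M libraries, against 2172 and 2204 in the wild-type libraries. Both V118M values were above both wild-type values, by little in replicate 1, and the log2 fold change was 0.25 ± 0.16 (SE, limma adjusted p = 0.951). It was 0.11 with V118M replicate 2 left out. Actg2, the enteric smooth muscle gamma-actin, was at 857 and 1062 in V118M and 716 and 846 in wild type. The groups did not overlap, although V118M replicate 1 and wild-type replicate 2 were close, and the log2 fold change of 0.29 was 0.14 with V118M replicate 2 left out. The actin genes are similar in sequence, but of the 50-base windows of their longest transcripts only 0.352% for Acta2 and 0% for Actg2 also occurred in a transcript of another gene.

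Tagln encodes transgelin (SM22), an actin-binding protein of smooth muscle and a classical SRF target. It was at 938 and 1382 in the V118M libraries and at 934 and 940 in the wild-type libraries. V118M replicate 1 thus lay between both wild-type libraries, and the log2 fold change of 0.28 was 0.002 without V118M replicate 2. Cnn1, the basic calponin of smooth muscle, had the set's highest log2 fold change, 0.73 ± 0.63 (SE). Its values were 24 and 78 in V118M and 33 and 20 in wild type, so V118M replicate 1 lay within the wild-type range, and without V118M replicate 2 the log2 fold change was -0.10. Cnn2, the calponin also made outside muscle and one of the promoters with a CArG box, was at 1612 and 2127 in V118M and 1579 and 1861 in wild type. Here again only V118M replicate 2 stood outside the wild-type libraries.

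Myl9 encodes the regulatory light chain of smooth muscle and non-muscle myosin II (chromosome 2, 156775420 to 156781658), and its promoter also held a CArG box. Myl9 was higher in both V118M libraries, replicate 2 the more. It was at 144 and 193 in the V118M libraries, against 92 and 129 in the wild-type libraries. The groups did not overlap, and the log2 fold change was 0.61 ± 0.27 (SE, limma unadjusted p = 0.0720, adjusted p = 0.951). Without V118M replicate 2 it was 0.40. It was 0.47 after each library was corrected for trends with transcript length and GC content (limma unadjusted p = 0.0564, adjusted p = 0.825). Cald1, which encodes the actin-binding protein caldesmon, was at 5468 and 5336 in V118M and 4925 and 5084 in wild type. Both V118M libraries were above both wild-type libraries, by a log2 fold change of 0.11 ± 0.14 (SE).

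The tropomyosins, which line actin filaments, followed the pattern of Tagln. Tpm1 was at 3750 and 4691 in V118M and 3376 and 3872 in wild type, and Tpm2 was at 1298 and 1956 in V118M and 1298 and 1514 in wild type. In both genes V118M replicate 1 lay within the wild-type range and V118M replicate 2 above it. The late markers of differentiated smooth muscle were near the low end of the scale. Myh11, the smooth muscle myosin heavy chain, was at 20 and 40 in V118M and 24 and 32 in wild type. Lmod1, a leiomodin that nucleates actin filaments in smooth muscle, was at 36 and 44 in V118M and 42 and 28 in wild type. The muscle intermediate filament gene Des was at 102 and 155 in V118M and 120 and 136 in wild type. In each of these 3 genes the groups overlapped.

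Srf overlapped between the groups, and the 5 adhesion, crosslinking and motor protein genes had their lowest value in V118M replicate 2, with Vcl below wild type in both V118M libraries. Srf (chromosome 17, 46548329 to 46556175, minus strand), whose promoter stretch above holds 2 CArG boxes, was at 1016 and 1005 in the V118M libraries and 954 and 1039 in the wild-type libraries. Its log2 fold change was 0.02 ± 0.14 (SE), and both V118M values lay within the wild-type range. Of the 6 genes in this group 5 had a log2 fold change below 0, with a median of -0.19. That median was 0.04 in V118M replicate 1 and -0.43 in V118M replicate 2.

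Vcl encodes vinculin, which links integrin adhesions to actin (chromosome 14, 20929398 to 21033676). It was at 5800 and 3338 in the V118M libraries, against 6321 and 6690 in the wild-type libraries. Both V118M libraries were below both wild-type libraries, replicate 2 by far the more, and the log2 fold change was -0.56 ± 0.29 (SE, limma adjusted p = 0.951). With V118M replicate 2 left out it was -0.17, and with V118M replicate 1 left out -0.96. Flna, the actin crosslinker filamin A, was at 11726 and 5962 in V118M and 11726 and 8994 in wild type, and Myh9, the heavy chain of non-muscle myosin IIA, at 17589 and 11726 in V118M and 16292 and 17589 in wild type. In both, V118M replicate 1 equalled a wild-type library and V118M replicate 2 was the lowest of the 4.

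Actn1, the crosslinker alpha-actinin 1, was at 2838 and 2201 in V118M and 2838 and 2714 in wild type. Zyx, the focal adhesion protein zyxin, was at 4358 and 3447 in V118M and 4274 and 3986 in wild type. These also had their lowest value in V118M replicate 2. Without that library the log2 fold changes of Flna, Myh9, Actn1 and Zyx were 0.19, 0.06, 0.03 and 0.08.

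Among YAP and TAZ and their targets the members did not move one way. The co-activators were level, the secreted targets Ctgf and Cyr61 overlapped between groups, Ankrd1 was higher in both V118M libraries, and Amotl2 and Ajuba were lower in both. The median log2 fold change of the 7 genes was -0.03, and relative to the wild-type mean their median was -0.19 in V118M replicate 1 and -0.07 in V118M replicate 2. An unadjusted p under 0.05 was found for 2 of the 7, or 28.6%, beside 4.01% of all genes tested. Yap1 was at 2472 and 2010 in V118M and 2308 and 2130 in wild type, and Wwtr1, which encodes TAZ, at 3493 and 3318 in V118M and 3426 and 3520 in wild type. Both had a V118M library on either side of the wild-type mean.

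Amotl2 encodes an angiomotin-like scaffold that binds YAP and holds it at junctions and is itself a YAP target (chromosome 9, 102716672 to 102733418). It was at 2792 and 2586 in the V118M libraries, against 3482 and 3512 in the wild-type libraries. Both V118M libraries were well below the wild-type libraries, which differed little from each other, and the log2 fold change was -0.38 ± 0.14 (SE, limma unadjusted p = 0.0439, adjusted p = 0.951). It was -0.32 without V118M replicate 2 and -0.26 after each library was corrected for trends with transcript length and GC content, where its unadjusted limma p was 0.0700.

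Ajuba encodes a LIM protein of cell junctions that binds the LATS kinases of the Hippo pathway (chromosome 14, 54567472 to 54577558, minus strand), and its promoter stretch above holds the TEAD core in 2 copies. It was at 834 and 712 in the V118M libraries, against 1008 and 1102 in the wild-type libraries. Each V118M library was below each wild-type library, and the log2 fold change was -0.45 ± 0.16 (SE, limma unadjusted p = 0.0351, adjusted p = 0.951). It was -0.34 without V118M replicate 2 and -0.37 after correction for length and GC.

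Ankrd1, a nuclear ankyrin repeat protein of muscle and a target of YAP, lay the other way (chromosome 19, 36111961 to 36120099, minus strand). It was at 129 and 186 in the V118M libraries, against 114 and 88 in the wild-type libraries. The groups did not overlap, and V118M replicate 1 was close to wild-type replicate 1. The log2 fold change was 0.62 ± 0.27 (SE, limma unadjusted p = 0.0694, adjusted p = 0.951). With V118M replicate 2 left out it was 0.36. Ctgf, a matricellular growth factor, was at 1906 and 2498 in V118M and 2125 and 2231 in wild type. Cyr61, its relative, was at 2587 and 3056 in V118M and 2988 and 3056 in wild type. For Ctgf the V118M libraries lay on either side of both wild-type libraries, and for Cyr61 V118M replicate 1 was the low one.

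**Figure D2:**
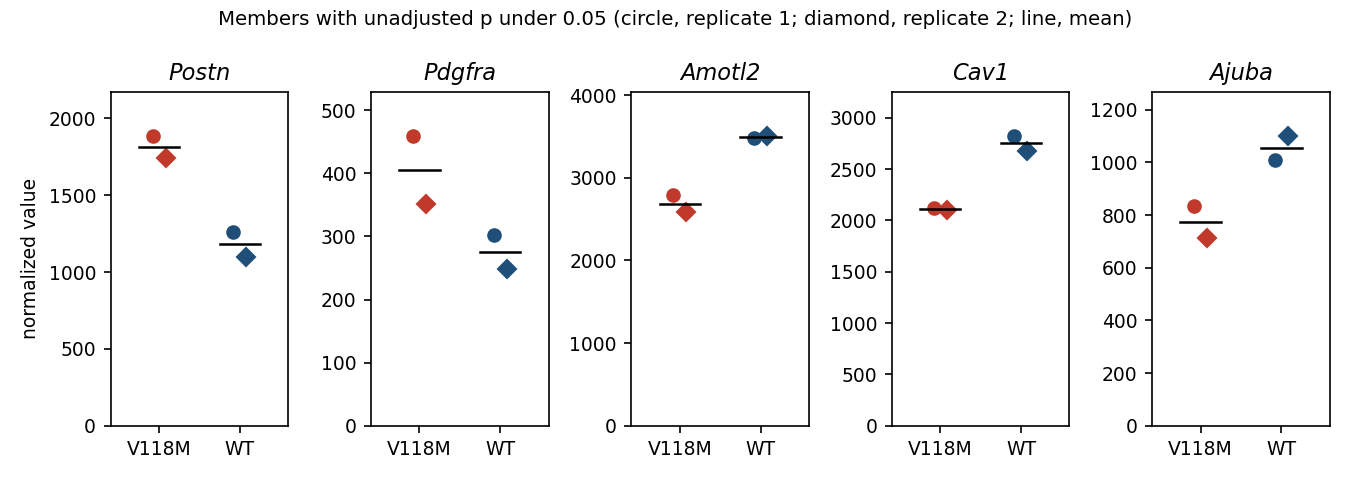
Normalized value (y axis, starting at 0, a separate scale per gene) of the 5 members with an unadjusted limma p under 0.05, with V118M left of wild type; points are libraries and the line is the mean of 2. Both V118M libraries lie above both wild-type libraries for Postn and Pdgfra and below them for Amotl2, Cav1 and Ajuba, and none of the 5 passed after adjustment over all genes.

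Fibroblast identity genes included the members with the most even difference between the groups. Of the 14 genes 9 were higher in V118M, 4 were lower and Vim was equal, and the median log2 fold change was 0.05. Postn, Pdgfra, Cdh2 and Lum were higher in both V118M libraries and Cav1 was lower in both. The share of the 14 genes without overlap between the groups was thus 35.7%, beside 28.0% of all genes tested. Relative to the wild-type mean the group's median was 0.14 in V118M replicate 1 and 0.12 in V118M replicate 2.

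Postn encodes periostin, a matricellular protein of activated fibroblasts (chromosome 3, 54361109 to 54391037). It was at 1889 and 1744 in the V118M libraries, against 1263 and 1098 in the wild-type libraries, which is 1816.5 ± 102.5 in V118M and 1180.5 ± 116.7 in wild type (SD, n = 2 each). The groups were separated by more than the spread within either. The log2 fold change was 0.62 ± 0.15 (SE, limma unadjusted p = 0.00905, adjusted p = 0.951). It stayed between 0.52 and 0.72 when any single library was left out, and was 0.58 after correction for length and GC.

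Pdgfra, the PDGF receptor alpha that marks embryonic mesenchyme (chromosome 5, 75152292 to 75198215), was at 460 and 352 in the V118M libraries, against 302 and 248 in the wild-type libraries. Both V118M libraries were above both wild-type libraries, replicate 1 the more, and the log2 fold change was 0.55 ± 0.21 (SE, limma unadjusted p = 0.0453, adjusted p = 0.951). With V118M replicate 1 left out it was 0.36. After correction for length and GC it was 0.70 (limma unadjusted p = 0.00258, adjusted p = 0.480). Its relative Pdgfrb, which also marks pericytes, was at 546 and 452 in V118M and 578 and 530 in wild type, and the groups overlapped. Cdh2, the N-cadherin of mesenchymal cells, was at 394 and 340 in V118M and 289 and 276 in wild type. The Cdh2 groups did not overlap, and the log2 fold change was 0.37 ± 0.17 (SE, limma unadjusted p = 0.0728, adjusted p = 0.951). After correction for length and GC the log2 fold change of Cdh2 was 0.47 (limma unadjusted p = 0.00917, adjusted p = 0.691).

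Cav1 encodes caveolin 1, the coat protein of caveolae (chromosome 6, 17306335 to 17341452). It was at 2124 and 2103 in the V118M libraries, against 2827 and 2680 in the wild-type libraries. The V118M libraries were nearly the same and both were below wild type, and the log2 fold change was -0.38 ± 0.14 (SE, limma unadjusted p = 0.0401, adjusted p = 0.951). It ranged from -0.42 to -0.34 with single libraries left out.

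The small leucine-rich proteoglycans that organize collagen fibrils were higher mainly in V118M replicate 2. Lum, lumican, was at 1356 and 1908 in V118M and 1254 and 1248 in wild type. Dcn, decorin, was at 11822 and 17630 in V118M and 9022 and 11822 in wild type. Lum did not overlap between the groups, and Dcn had the same value in V118M replicate 1 and wild-type replicate 2. Their log2 fold changes of 0.36 and 0.48 were 0.12 and 0.19 with V118M replicate 2 left out. The short calcium-binding protein gene S100a4 was at 2845 and 4034 in V118M and 2674 and 2938 in wild type. For S100a4, 56.3% of the 50-base windows of its transcript also occur in the annotated transcript Gm42674, so its reads could be split between them.

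The glycoproteins of the fibrillar matrix went the other way in V118M replicate 2. Fn1, fibronectin, was at 29480 and 14852 in V118M and 29480 and 22740 in wild type. Fbn1, the microfibril protein fibrillin 1, was at 12805 and 5676 in V118M and 14852 and 10464 in wild type. In both genes V118M replicate 1 lay within or at the wild-type range and V118M replicate 2 was the lowest library. The remaining identity genes overlapped between the groups. Vim, the intermediate filament vimentin, took a shared pair of steps, 19024 and 29480 in V118M and 19024 and 29480 in wild type, so no difference could be seen. Thy1, a surface glycoprotein used to follow the loss of fibroblast identity, was at 1822 and 1704 in V118M and 1694 and 1798 in wild type. Prrx1, the mesenchymal homeobox factor, was at 6170 and 4771 in V118M and 5341 and 5089 in wild type, and Cdh11, the mesenchymal cadherin, at 1810 and 1509 in V118M and 1674 and 1550 in wild type. For Prrx1 and Cdh11 the V118M libraries were the highest and the lowest of the 4.

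The difference of V118M replicate 2 from wild type followed the length of the members' transcripts. Lengths ran from 498 bases (S100a4) to 11971 bases (Fbn1), taking the longest protein-coding transcript of each gene. Across the 39 members Spearman's rho between length and the difference from the wild-type mean was -0.66 in V118M replicate 2 and 0.11 in V118M replicate 1. These points share a library, and the relation had the same sign over those 12651 genes, where rho was -0.55 in V118M replicate 2 and 0.19 in V118M replicate 1. The wild-type libraries also differed with length, with a rho of 0.46 over the members for replicate 1 minus replicate 2.

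By length class, the 6 members under 2000 bases had a median of 0.54 in V118M replicate 2, the 23 members from 2000 to under 5000 bases a median of 0.27, and the 10 members of 5000 bases or more a median of -0.41. In V118M replicate 1 the same medians were 0.10, 0.03 and 0.11. Over all 12651 genes the medians of V118M replicate 2 were 0.37, -0.01 and -0.32 in the same classes. After correction for length and GC, the smooth muscle contractile median was 0.16 in place of 0.21, that of the SRF and adhesion group -0.06 in place of -0.19, and rho over the members for V118M replicate 2 was -0.25. The 5 members with an unadjusted p under 0.05 were then Postn, Pdgfra, Cav1, Ajuba and Cdh2, or 12.8% of members, beside 5.80% of all genes in that fit.

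**Figure D3:**
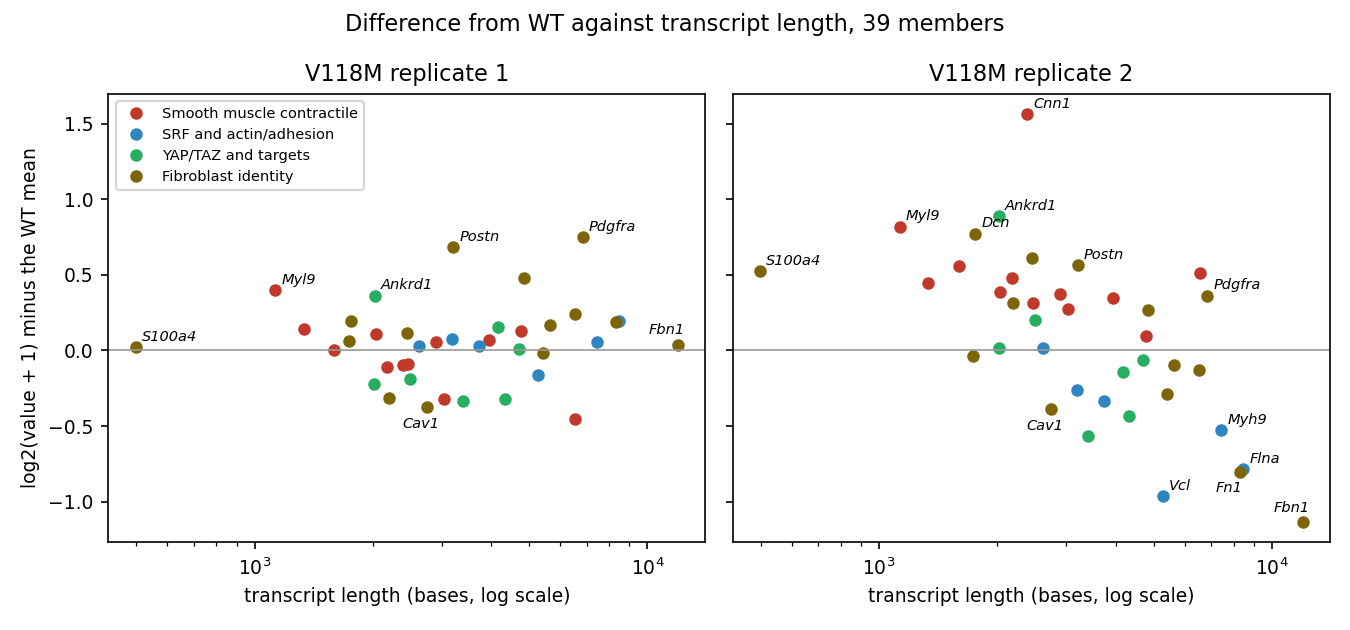
Difference from the wild-type mean in log2(value + 1) (y axis) against the length of the longest protein-coding transcript (x axis, log scale) for the 39 members, in V118M replicate 1 (left) and V118M replicate 2 (right), coloured by group. In V118M replicate 2 the long genes Fbn1, Fn1, Flna and Vcl lie lowest and short ones such as Myl9 and Dcn high, with rho -0.66, while V118M replicate 1 has no such slope (rho 0.11).

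Other genes of both pathways were listed apart from the members. Of 34 further genes of the SRF and MRTF pathway, 20 were higher, 12 lower and 2 equal in V118M, none passed the test, and the median log2 fold change was 0.02. The median was -0.06 in V118M replicate 1 and 0.12 in V118M replicate 2, and after correction for length and GC it was -0.03. Of these 34 genes, 2 had an unadjusted p under 0.05, both higher, or 5.88%, a share near the 4.01% of all genes tested. Mylk, which encodes the kinase of the myosin light chain Myl9, was at 137 and 99 in V118M and 71 and 72 in wild type (log2 fold change 0.70, limma adjusted p = 0.951). Egr1, an immediate early gene with SRF sites, was at 806 and 735 in V118M and 594 and 584 in wild type (log2 fold change 0.39, limma adjusted p = 0.951). In both genes the V118M libraries were above the wild-type libraries. The next by p were Ldb3, a Z-disc protein of striated muscle, at 6 and 4 in V118M and 14 and 11 in wild type, and the tropomyosin gene Tpm3, at 6704 and 7770 in V118M and 5575 and 6334 in wild type.

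Of 34 further genes of the Hippo and YAP pathway 27 were lower and 7 higher in V118M, with a median log2 fold change of -0.16. The groups did not overlap in 15 of them, 11 lower and 4 higher, or 44.1%, beside 28.0% of all genes tested. The list's median was -0.02 in V118M replicate 1 and -0.34 in V118M replicate 2, and its median transcript length was 4918 bases, against 2810 for all genes tested. Only Fjx1, a secreted regulator of Fat signalling and a YAP target, had an unadjusted p under 0.05 (1 of 34, or 2.94%), at 69 and 64 in V118M and 44 and 40 in wild type (log2 fold change 0.65, limma adjusted p = 0.951). The next by p were Amot, an angiomotin that binds YAP as Amotl2 does, at 290 and 192 in V118M and 350 in both wild-type libraries, Tgfb2, a ligand listed as a YAP target, at 2427 and 2244 in V118M and 3020 and 2884 in wild type, and Crim1, also a listed target, at 948 and 678 in V118M and 1113 in both wild-type libraries. All 3 were below wild type in both V118M libraries. After correction for length and GC the list's median was -0.11.

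**Figure D4:**
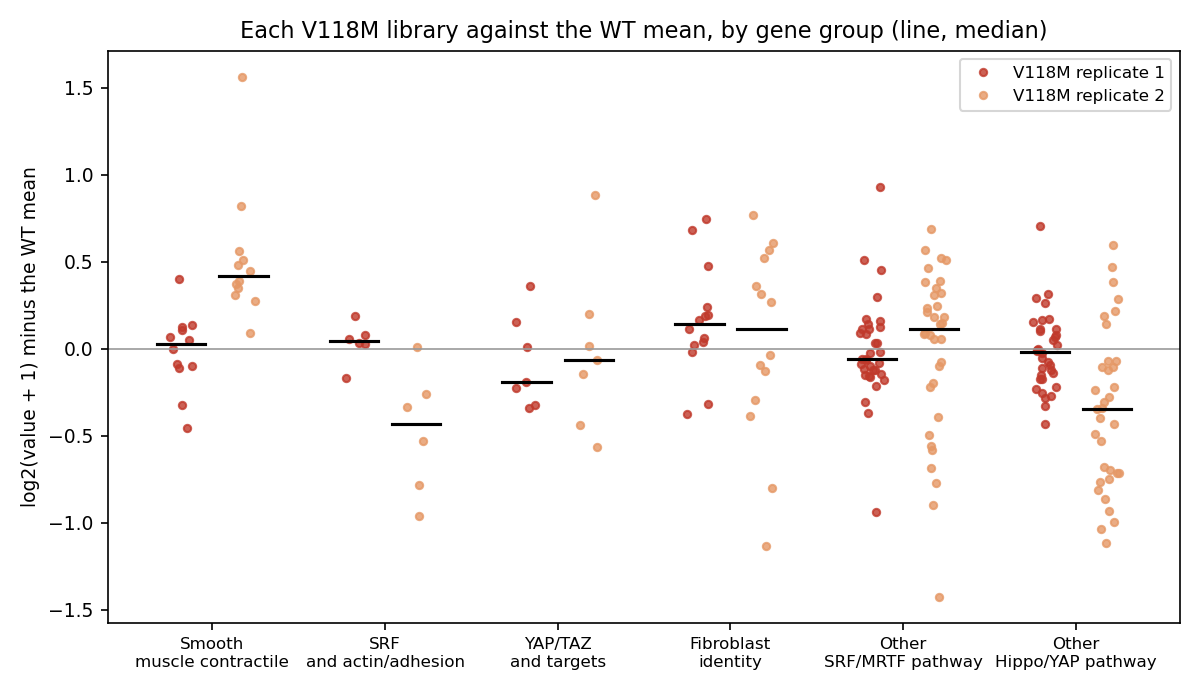
Difference of each V118M library from the wild-type mean in log2(value + 1) (y axis) for the 4 groups of members and the 2 further pathway lists (x axis); points are genes and lines are medians. V118M replicate 2 has a median of 0.42 for the contractile genes and -0.43 for the SRF and adhesion genes, where V118M replicate 1 has 0.03 and 0.04.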

How the data were processed

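The deposited table gives whole-number scores per gene for 4 libraries. Per the submitters' processing notes, mm10, FastQC, RSEM, Bowtie2 and DESeq2 were used, without versions or roles, and how the table was normalized is not stated. The scores deposited by the authors are not raw counts: after sorting, the 4 columns were identical at 76.7% of ranks, and depth is unknown. The test planned for normalized values was therefore used. Genes reaching 1 in 2 or more libraries entered a limma fit (limma 3.58.1, R 4.3.3) of log2(value + 1) on group alone, using the trend and robust settings. P-values are two-sided and Benjamini-Hochberg adjusted over all genes tested. The fit was tested on simulated data. Coordinates, transcript lengths and GC content came from GENCODE M21 on GRCm38, matched by gene or transcript ID for 22304 genes, and coordinates count from 1. The length and GC alternative removed a spline trend per library, fitted on genes whose log2 values averaged 5 or more. Strand handling in the counting is not stated. Alternatives were pseudocounts of 0.1 and 5, other filters, the replicate block, array quality weights, no trend option and single libraries left out. The array quality weights were 0.429 for both V118M libraries and 2.33 for both wild-type libraries. They therefore did not weight V118M replicate 2 differently from V118M replicate 1. The members and lists were chosen with earlier results of these data known. All members are named, with the 4 genes of smallest p of each pathway list. Of marker lists, the most abundant gene and genes at 0 are named. Protein sequences were not used here.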

Additional observations from a re-analysis of the deposited data

How the results depend on the processing

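None of the 39 members passed an adjusted p of 0.05 under any alternative run. Over all genes the count was 0 in each, except with the replicate block (3 genes, Oas2, Ifi27l2a and C4b) and with the length and GC trend removed together with the block (1, C4b). The counts at an unadjusted p under 0.05 were 784 for all genes and 5 for members. They were 1204 and 9 with the replicate block, and 1450 and 7 with the block and the trend removed. With no filter on low values they were 1441 and 6, and without the trend and robust options 1039 (5.32%) and 1 (Postn). The replicate numbers are not stated to mark a shared culture or batch; same-numbered libraries deviated together with r = 0.303 across 12651 genes, and 2 pairs are too few to settle it.

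With single libraries left out, the counts ranged from 221 to 5096 for all genes and from 0 to 6 for members: 221 and 0 without wild-type replicate 1, 269 and 0 without wild-type replicate 2, 5096 and 6 without V118M replicate 1, and 2283 and 4 without V118M replicate 2. The median log2 fold change ranged from -0.0072 to 0.20 for all members, 0.092 to 0.19 for fibroblast identity genes, -0.19 to -0.048 for YAP and TAZ and targets, -0.055 to 0.12 for the further SRF and MRTF list and -0.34 to -0.018 for the further Hippo and YAP list. For the contractile and the SRF and adhesion groups it ranged from 0.027 to 0.42 and from -0.43 to 0.044. Spearman's rho of V118M replicate 2 with length was -0.67 to -0.58 without either wild-type library, -0.25 with the trend removed, and -0.55 with the length of the transcript listed in the table, an alternative chosen after seeing the data.

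The log2 fold change kept its sign under every alternative for 17 members. That of Vim, 0 with all libraries, ranged from -0.32 to 0.32. With the trend removed, with or without the block, it turned for Des (0.023), Wwtr1 (0.010), Ctgf (-0.043), Thy1 (-0.060) and S100a4 (-0.030). With single libraries left out it turned for 20 members, 12 of them without V118M replicate 2. Their ranges were -0.33 to 0.032 for Actn1, -0.094 to 0.17 for Cdh11, -0.096 to 1.56 for Cnn1, -0.089 to 0.31 for Cnn2, -0.19 to 0.20 for Ctgf, -0.22 to 0.016 for Cyr61, -0.32 to 0.28 for Des, -1.13 to 0.039 for Fbn1, -0.78 to 0.19 for Flna, -0.80 to 0.19 for Fn1, -0.076 to 0.49 for Lmod1, -0.45 to 0.51 for Myh11, -0.53 to 0.055 for Myh9, -0.13 to 0.24 for Prrx1, -0.040 to 0.083 for Srf, -0.034 to 0.062 for Thy1, -0.11 to 0.48 for Tpm2, -0.066 to 0.0084 for Wwtr1, -0.14 to 0.16 for Yap1 and -0.26 to 0.078 for Zyx. The cause of these changes was not tested. The alternatives planned for raw counts were not run, because the table holds none. Depth is unknown, so no counting error is given. In fits that left out a library, the lone library of a group is assumed to vary like the others.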
